A study of Mus musculus with 12 samples.

Results

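The Th2 cytokine locus of the mouse lies on chromosome 11, where the cytokine genes Il4, Il13 and Il5 stand among genes of unrelated function. The 8 genes described here are Il4, Il13, Il5, Rad50, Irf1, Kif3a, Sept8 and P4ha2. They were taken by name from the 23700 loci of each expression table, together with every Bach2 peak between the outermost loci of the set. All 8 had a value in each of the 10 RNA libraries. The study asked what the transcription factor Bach2 does in induced regulatory T (iTreg) cells, by RNA sequencing and by chromatin immunoprecipitation (ChIP). The groups are Bach2KO iTreg cells (3 libraries), WT iTreg cells (3 libraries), and WT Th1, Th2, Th17 and naive cells (1 library each). All came from C57BL/6J mice and began as naive CD4+CD44-CD25-CD62L+ T cells sorted from spleen and lymph nodes. Except for the naive library, cells spent 3 days on plates coated with anti-CD3 and anti-CD28, each at 10 μg/ml, per the labels' protocols. The iTreg cultures received IL-2 (100 IU/ml) and TGF-β1 (5 ng/ml) and no neutralizing antibody. Th1 cultures received IL-12 (20 ng/ml) with anti-IL-4, and Th2 cultures received IL-4 itself (20 ng/ml) with anti-IFN-γ. Th17 cultures received IL-6 (20 ng/ml), TGF-β1 (2 ng/ml) and both antibodies. Which part of Bach2 was deleted, in which cells of the mouse, and whether libraries came from separate mice are not stated in those labels. The p-values below therefore measure the spread between libraries, which may be technical.

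In T cells that become Th2 cells, the factor GATA3 and IL-4 signalling through STAT6 open this locus, and Il4, Il13 and Il5 are then transcribed together. In mice a locus control region for these cytokine genes lies inside the 3′ part of Rad50, whose own product is a DNA repair protein found in most cells. Bach2 acts as a repressor in B and T cells, pairs with small Maf proteins, and binds sites with the letters TGANTCA, the core that AP-1 factors also bind.

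On mm9 the set runs along chromosome 11 from Sept8 at 53333238 to P4ha2 at 53945169, a stretch of 612 kb that holds 13 loci of the tables. Sept8 (53333238 to 53357598, plus strand) and Kif3a (53380881 to 53417746, plus strand) come before the cytokine genes. Il4 (53425963 to 53432167, minus strand) follows 8.22 kb after the end of Kif3a. Il13 (53444825 to 53448204, minus strand) is separated from Il4 by 12.7 kb, and Rad50 (53463021 to 53520821, minus strand) from Il13 by 14.8 kb. Il5 (53534296 to 53538605, plus strand) lies 13.5 kb beyond the 5′ end of Rad50. Irf1 (53583516 to 53591876, plus strand) is next, and P4ha2 (53914426 to 53945169, plus strand) lies 323 kb past it.

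The authors' list for 1 ChIP library of WT iTreg cells holds 22494 Bach2 peaks, of which 15 fell in this stretch. That is 2.45 peaks per 100 kb, beside 0.852 per 100 kb over chromosomes 1 to 19 and X, and 10.5% of 4305 windows of the same length held at least as many. Their median was 38 tags and 13.2-fold over local background, beside 29 tags and 12.8-fold for all peaks. No peak lay between the Il4 and Rad50 loci, which includes Il13, and none within 10 kb of Il5. Peak 3 (53418765 to 53419325) was the peak nearest to Il4, with its summit 6.86 kb past the 3′ end of the Il4 locus and 1.36 kb past that of Kif3a. It is weak, with 17 tags, 6.31-fold enrichment and an FDR of 6.28%, and a longer annotated Il4 transcript spans it. Peaks 4, 5 and 6 lay in introns 22, 21 and 21 of the 25-exon Rad50 transcript, within 7.66 kb of each other. Their summits were 5.86 to 13.5 kb from the 3′ end of Rad50, in the 3′ part of the gene. Peak 5 was the strongest of them at 20.7-fold (29 tags, FDR 0.2%), with peak 4 at 16.9-fold (24 tags, FDR 0.46%) and peak 6 at 10.3-fold (10 tags, FDR 5.22%). Peak 2 (44 tags, 16.0-fold) lay in intron 8 of the 19-exon Kif3a transcript, and peak 1 (16 tags, 13.2-fold) 4.04 kb upstream of Kif3a. Peak 7 lay 5.92 kb upstream of the start of Irf1, with 108 tags and 12.5-fold enrichment.

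The DNA under the peaks nearest to the cytokine genes and Irf1 is shown because it is where Bach2 was mapped in this locus. Each line gives 200 bases around the summit, plus strand of mm9, with any TGANTCA in capitals.
Peak 2, Kif3a intron 8, chr11:53398495-53398694: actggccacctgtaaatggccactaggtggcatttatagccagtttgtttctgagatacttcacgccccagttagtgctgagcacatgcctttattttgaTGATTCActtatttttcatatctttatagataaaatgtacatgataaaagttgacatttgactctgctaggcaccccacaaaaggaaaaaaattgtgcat
Peak 3, past the 3′ end of Il4, chr11:53419003-53419202: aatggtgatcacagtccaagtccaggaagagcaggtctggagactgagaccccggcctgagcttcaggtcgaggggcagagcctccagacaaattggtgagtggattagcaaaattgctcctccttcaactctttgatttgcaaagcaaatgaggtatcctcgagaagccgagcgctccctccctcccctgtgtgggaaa
Peak 4, Rad50 intron 22, chr11:53468779-53468978: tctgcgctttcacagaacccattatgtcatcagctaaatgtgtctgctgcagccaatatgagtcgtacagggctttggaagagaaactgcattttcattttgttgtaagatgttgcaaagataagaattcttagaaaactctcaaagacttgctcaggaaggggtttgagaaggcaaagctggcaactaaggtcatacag
Peak 5, Rad50 intron 21, chr11:53470506-53470705: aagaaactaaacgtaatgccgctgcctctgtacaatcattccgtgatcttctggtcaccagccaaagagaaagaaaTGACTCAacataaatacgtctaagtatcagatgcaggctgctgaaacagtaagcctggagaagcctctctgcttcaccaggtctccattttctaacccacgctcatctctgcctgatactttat
Peak 6, Rad50 intron 21, chr11:53476437-53476636: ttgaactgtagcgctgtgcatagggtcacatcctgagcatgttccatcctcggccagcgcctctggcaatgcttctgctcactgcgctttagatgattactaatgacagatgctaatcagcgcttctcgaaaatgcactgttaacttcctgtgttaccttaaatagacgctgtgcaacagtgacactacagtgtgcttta
Peak 7, upstream of Irf1, chr11:53577493-53577692: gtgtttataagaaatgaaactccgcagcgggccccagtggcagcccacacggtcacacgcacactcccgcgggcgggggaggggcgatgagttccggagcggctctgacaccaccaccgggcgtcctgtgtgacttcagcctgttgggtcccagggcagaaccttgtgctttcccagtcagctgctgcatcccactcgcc
Of these 6 windows, those of peaks 2 and 5 hold the core, as TGATTCA centred 3 bases after the summit of peak 2 and as TGACTCA centred 21 bases before that of peak 5. The window of peak 7 has a GC content of 64.0% and no TGANTCA.

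The other TGANTCA matches in the 300 bases around a summit lie further right. They stand at peaks 9 and 10 in introns of the predicted gene Gm12216, and at peaks 12 and 13 at the transporter gene Slc22a4. Peak 15, before P4ha2, holds the last. These matches are shown as 27 bases with the match in capitals, plus strand of mm9, to let the flanks be compared.
Peak 9, chr11:53617155-53617181: cacaaggcctTGACTCAgcactgcaga
Peak 10, chr11:53649310-53649336: tcctgcagacTGAGTCAgcagtttcag
Peak 12, chr11:53832606-53832632: ctcattgcaaTGAGTCAtaggtctagt
Peak 13, chr11:53842148-53842174: gaggtcatgcTGAGTCAgaggcgcgcc
Peak 15, chr11:53894007-53894033: gggattatgtTGACTCAcagctggaag
In the 300 bases around the summit, 7 of the 15 peaks hold TGANTCA, beside 46.0% of all peaks. Over the whole peak it was 9 of the 15, with peaks 3 and 11 added, beside 53.4% of all peaks. The core letters are a palindrome except for the N, so a match is counted once for both strands. A longer form with TGC directly before TGANTCA on either strand, the kind that Bach2 binds with small Maf proteins, was found in 3 of the 15 (peaks 9, 10 and 13), beside 10.8% of all peaks. The motif that STAT6 prefers, TTC and GAA with any 4 bases between them, reads the same on both strands and was found in 2 of them (peaks 3 and 11), beside 8.70% of all peaks.

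The promoters of Il4 and Il13 are shown because both genes were far higher without Bach2, and because no peak lay within 10 kb of either start. Each line is 300 bases that end shortly after the start, from RefSeq on GRCm38.p6, written along the minus strand, with the STAT6-type motif in capitals where it stands.
Il4, minus strand, chr11:53618616-53618915: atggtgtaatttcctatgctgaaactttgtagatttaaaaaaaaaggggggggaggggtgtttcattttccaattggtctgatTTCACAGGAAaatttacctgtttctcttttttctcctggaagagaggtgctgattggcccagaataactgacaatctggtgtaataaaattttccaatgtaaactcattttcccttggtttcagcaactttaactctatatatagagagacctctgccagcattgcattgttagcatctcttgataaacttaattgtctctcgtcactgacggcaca
Il13, minus strand, chr11:53634653-53634952: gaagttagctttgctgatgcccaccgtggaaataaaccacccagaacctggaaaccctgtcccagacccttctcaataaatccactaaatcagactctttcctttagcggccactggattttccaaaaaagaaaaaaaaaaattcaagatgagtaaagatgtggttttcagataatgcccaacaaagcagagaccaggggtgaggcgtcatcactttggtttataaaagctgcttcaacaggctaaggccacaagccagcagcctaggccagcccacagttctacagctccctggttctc
Of the 8 genes 7 matched an entry, all but Rad50, with Sept8 under its newer name and more than 1 start for Sept8, Il4 and Irf1. None of these promoters holds TGANTCA, against 7.81% of 32851 promoters. The STAT6-type motif stands once in the Il4 promoter shown and once in a Sept8 promoter, against 6.95% of promoters.

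**Figure D1:**
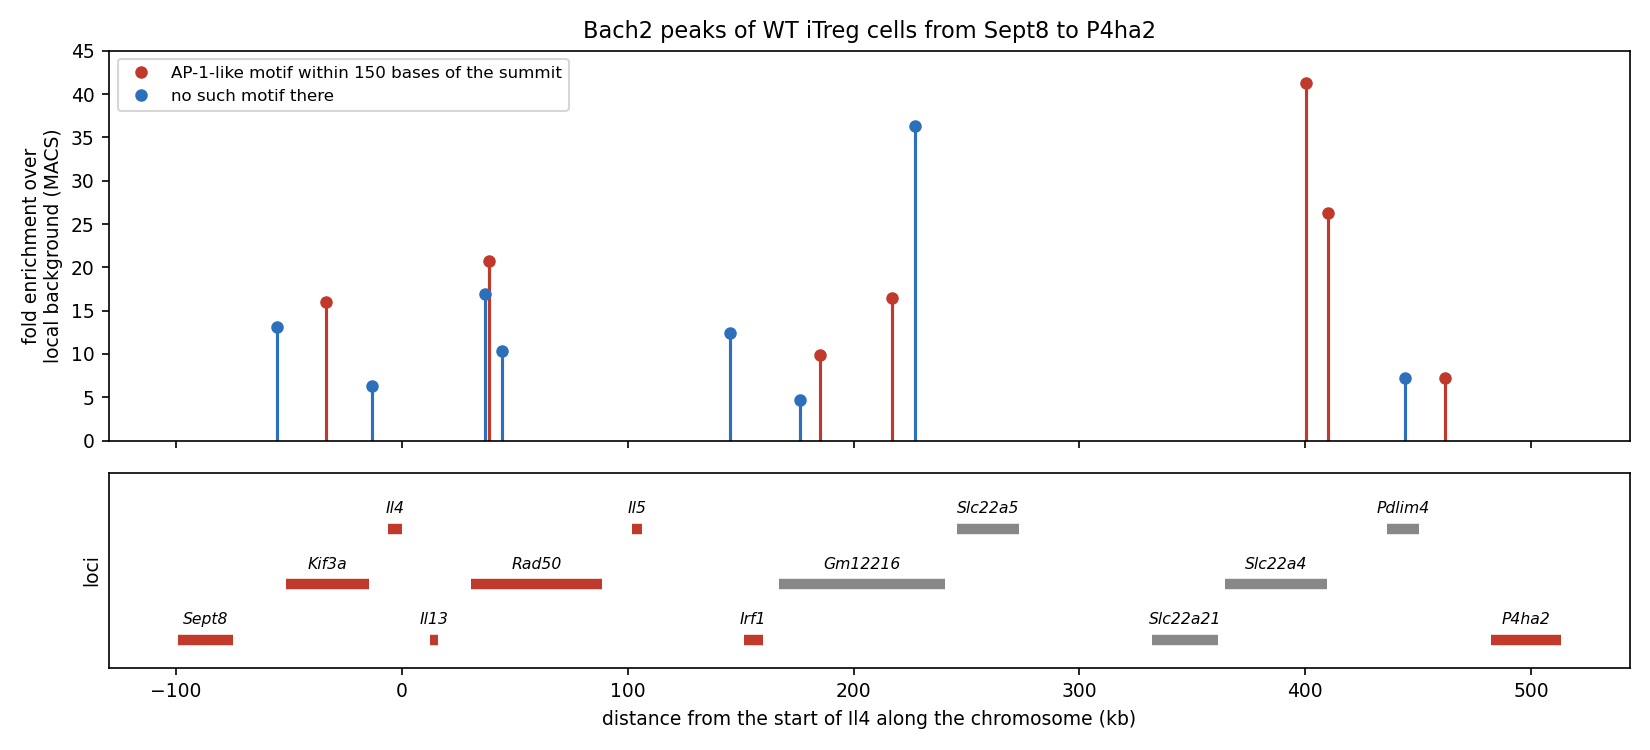
Upper panel: fold enrichment of each of the 15 Bach2 peaks (vertical axis, ratio to local background) against distance from the start of Il4 in kb, in red where the core TGANTCA lies in the 300 bases around the summit and in blue where it does not. Lower panel: the 8 genes of the set in red and the 5 other loci in grey; the highest peak (41.3-fold) is peak 12 in Slc22a4, and no peak stands between Il4 and Rad50.

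The libraries were checked against their labels. The read numbers implied by the deposited confidence bounds were 12355467 to 24034354 per library over genes with a single start, and they cover counting error only. Bach2 was at 3.91, 3.39 and 4.12 FPKM (fragment numbers scaled to transcript length and library size) in Bach2KO and 17.9, 17.7 and 17.2 FPKM in WT iTreg libraries. It fell by 2.08 on the log2(FPKM + 0.5) scale (limma with Benjamini-Hochberg adjustment, adjusted p = 4.4e-06). The labelled cultures carried their defining transcripts: Tbx21 was at 35.5 FPKM in Th1, Gata3 at 101.9 in Th2, Il17a at 144.9 in Th17 cells, and Foxp3 at 66.7 to 81.1 in WT iTreg cells. Foxp3 was at 7.68, 19.7 and 5.81 FPKM in the Bach2KO iTreg libraries. Of 6 CD4 T cell markers none rose and 3 fell in Bach2KO (Cd3e, Cd3d and Cd5). Quantile scaling and equal sums each gave 4 lower. Their summed levels were 1028 to 1210 FPKM in Bach2KO and 1271 to 1307 in WT. Beside these and the marker counts below, 41% of all genes tested were called higher and 33.6% lower. The 11 mast cell and basophil markers summed to 0.597 to 0.658 FPKM in Bach2KO and 0.515 to 0.817 in WT, with Mcpt4, Fcer1a, Tpsb2, Cma1 and Prss34 at 0 in all 6 iTreg libraries. The 4 eosinophil markers summed to 0.0631 to 0.285 FPKM in Bach2KO and 0.0100 to 0.0423 in WT. Of the 6 markers of CD8, NK and NKT cells 3 were tested, of which 2 rose (Cd8a and Cd8b1) and 1 fell (Klrd1). All 6 summed to 12.5 to 14.2 FPKM in Bach2KO and 8.26 to 10.1 in WT. B cell markers summed to 12.7 to 19.0 FPKM in Bach2KO and 11.2 to 60.9 in WT, with none higher and 2 lower of 5 tested (6 listed). The 5 myeloid markers summed to 0.127 to 0.423 FPKM in Bach2KO and 3.05 to 4.29 in WT. Nearly all of that WT sum was Itgam, the 1 tested, which was lower (mean 0.143 FPKM in Bach2KO, 3.70 in WT). Lyz2, Csf1r, Cd14 and Emr1 averaged at most 0.0835 FPKM in either genotype. The part of such cells in the results below was not tested.

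The cytokine genes were compared first. Il4, which encodes the cytokine that drives Th2 cells, was at 13.5, 6.70 and 14.4 FPKM in Bach2KO iTreg libraries, against 0, 0 and 0.0810 in WT iTreg libraries. All Bach2KO values lay far above all WT values, and Bach2KO replicate 2 stood at 0.482 times the mean of the other pair. Il4 rose by 4.44 in log2(FPKM + 0.5), with a standard error (SE) of 0.286 (limma, Benjamini-Hochberg adjusted p = 3.41e-05), a scale on which the change of a gene near 0 is understated. Il13, which encodes a cytokine of allergic and mucosal responses, was at 15.6, 6.65 and 16.8 FPKM in Bach2KO and was listed at 0 in each WT library. It rose as well (limma adjusted p = 5.6e-05), with no fold given because WT is at 0, and replicate 2 was again the lowest at 0.410 times the mean of the others. The implied reads of Il13 were 574, 218 and 517 in the Bach2KO libraries. Il5, the eosinophil growth factor gene, was at 0.430, 0 and 0.318 FPKM in Bach2KO, against 0.0476, 0 and 0.0464 FPKM in WT, so the groups overlapped. Those Il5 values rest on 21, 0 and 13 implied reads in Bach2KO and 2, 0 and 2 in WT. Il5 was under the filter of a mean of 0.5 FPKM and had no test in the main comparison. Without the filter its log2 difference was 0.45 (limma adjusted p = 0.17). In bulk RNA, a larger share of cells that transcribe a gene and more RNA per cell cannot be told apart.

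In the 4 single libraries Il4 and Il13 were nearly restricted to Th2 cells. These libraries have no replicate and therefore no test, and the bounds given are the authors' deposited confidence bounds. Il4 was at 18.6 FPKM in Th2 (bounds 15.7 to 21.6), 0.118 in Th1 (bounds 0 to 0.353), and 0 in Th17 and naive cells. The Th2 bounds of Il4 lie above the value of the highest Bach2KO iTreg library (14.4 FPKM) but overlap that library's own bounds (12.2 to 16.6). The Bach2KO iTreg mean of Il4 was 61.8% of the Th2 level. Il13 was at 6.02 FPKM in Th2 (bounds 4.96 to 7.08) and at 0 in Th1, Th17 and naive cells. The Bach2KO iTreg mean of Il13 was 216% of the Th2 level, with replicate 2 inside the Th2 bounds and the other libraries above them. Il5 was at 0.279 FPKM in Th2 (bounds 0.0818 to 0.476), 0.0386 in Th17, 0 in Th1 and 0.0439 in naive cells. The Th2 value of Il5 rests on 8 implied reads, and none of the neighbours in its order of levels could be separated.

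**Figure D2:**
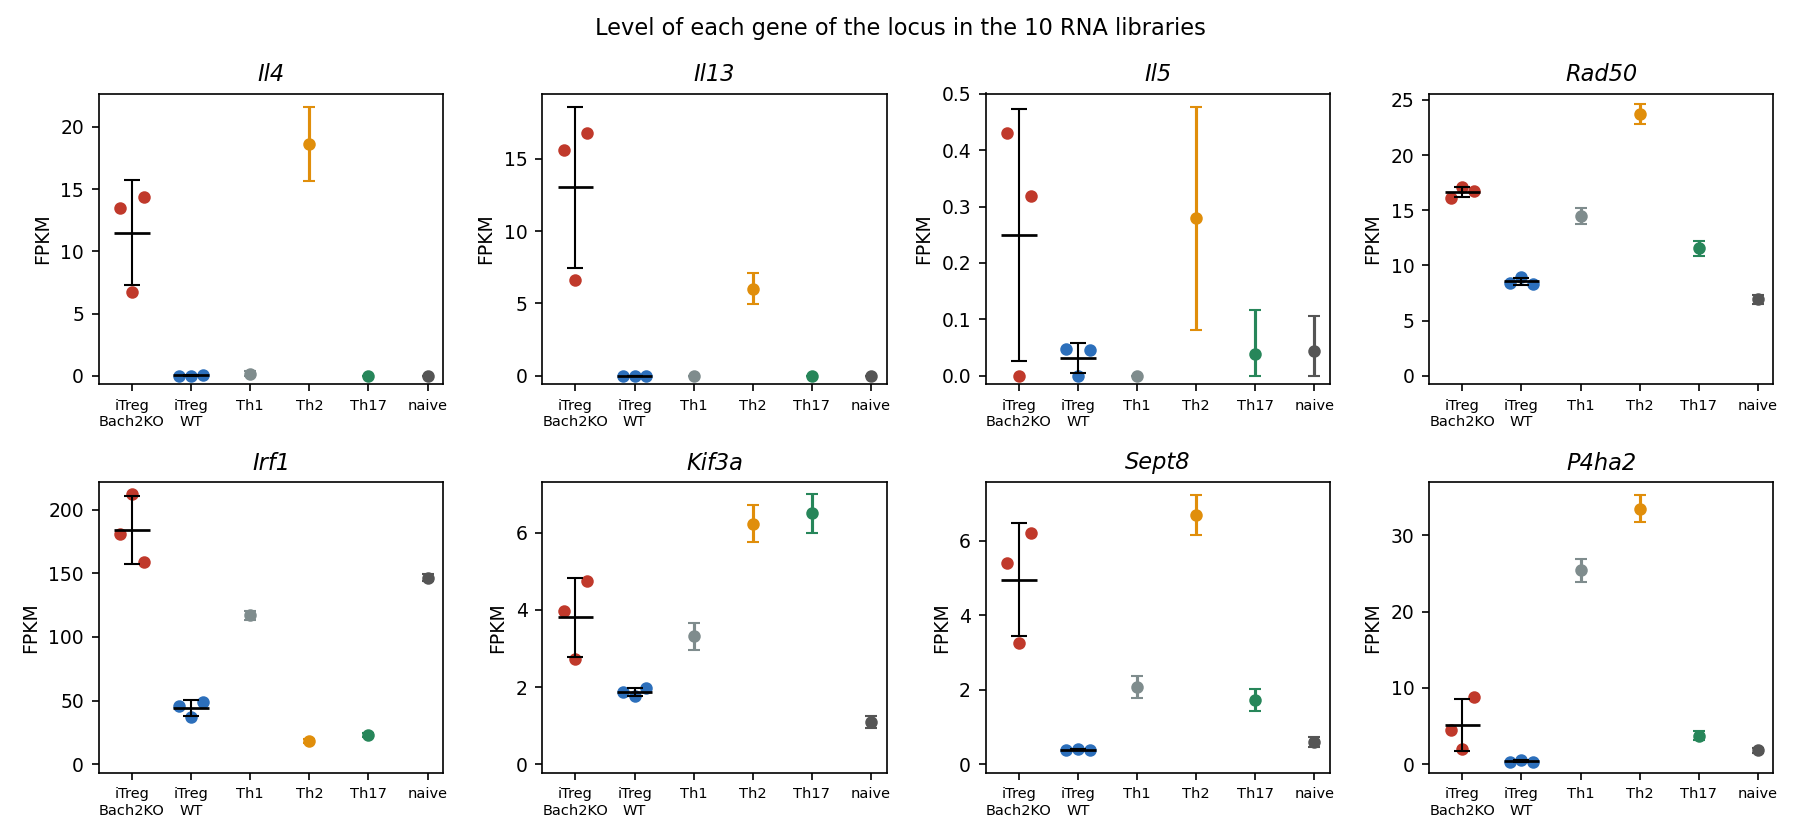
FPKM (vertical axis) of each of the 8 genes in the 6 groups: points are libraries, the bar and whiskers of the iTreg groups are mean ± SD (n = 3), and the whiskers of Th1, Th2, Th17 and naive cells are deposited confidence bounds of 1 library. Il4 and Il13 stand above 6 FPKM in all Bach2KO iTreg libraries and in Th2 cells and at or near 0 elsewhere, and Irf1 has the opposite order of Th2 and naive cells.

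Rad50 encodes the ATPase of the MRE11 complex that holds DNA ends, and its body contains peaks 4 to 6. It was at 16.1, 17.1 and 16.7 FPKM in Bach2KO and 8.45, 8.91 and 8.31 FPKM in WT iTreg libraries. The groups were tight and did not overlap, and Rad50 rose by 0.92 (SE 0.0478, limma adjusted p = 1.53e-05). Among the single libraries it was highest in Th2 cells at 23.7 FPKM (bounds 22.8 to 24.7), then 14.5 in Th1, 11.6 in Th17 and 6.95 in naive cells. No neighbouring pair in this order overlapped in its bounds, with Bach2KO iTreg between Th2 and Th1, and WT iTreg between Th17 and naive cells. Of 6 tested partner genes in DNA repair 4 rose and 1 fell, where 74.7% of all 11473 genes tested were called, 41% higher and 33.6% lower. The median of the 6 was 1.24, beside 0.07 over all genes tested. Mre11a, the nuclease of the same complex, was at 16.0 ± 0.671 FPKM in Bach2KO and 8.14 ± 0.334 in WT (SD, n = 3 each), a log2 difference of 0.93 (limma adjusted p = 2.22e-05). Nbn, the remaining subunit, rose by 1.54, and Rbbp8 and Brca1, which act in end resection, rose by 2.02 and 2.63 on the log2 scale. Mdc1, which binds damaged chromatin, fell to 12.3 ± 0.242 FPKM in Bach2KO, against 14.3 ± 0.381 in WT, and Atm, the kinase, was not called (limma adjusted p = 0.0907). Mdc1 and Atm are named here because of their values, and Atm fell too with quantile scaling, equal sums and equal medians, where the split was 4 higher and 2 lower, and without Bach2KO replicate 2 (limma adjusted p = 0.00698).

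Irf1 encodes a transcription factor of interferon responses and was the most abundant gene of the set in the iTreg libraries. It was at 181.0, 211.9 and 158.8 FPKM in Bach2KO and 46.0, 37.3 and 49.3 FPKM in WT iTreg libraries. Every Bach2KO library exceeded every WT library more than 3-fold, and Irf1 rose by 2.04 (SE 0.142, limma adjusted p = 4.54e-05). Its order in the single libraries was unlike that of Il4 and Il13: 116.9 FPKM in Th1, 22.9 in Th17 and 18.3 in Th2 cells, and 146.6 in naive cells. No neighbouring pair in the order of all 6 groups overlapped, and Th2 cells stood at the bottom with bounds of 16.9 to 19.6. Junb, an immediate early gene, was at 146.7 to 224.7 FPKM in the helper libraries and at 737.4 in the naive library, and any bearing on the naive level of Irf1 was not tested. Of 12 tested interferon response genes beside Irf1, 10 rose and none fell in Bach2KO iTreg cells, beside 41% higher and 33.6% lower over all genes tested. Their median was 1.20, and quantile scaling and equal sums gave 9 higher and 1 lower. Psmb9, an immunoproteasome subunit, was at 329.1 ± 16.0 FPKM in Bach2KO and 93.6 ± 6.04 in WT. The peptide transporter gene Tap1 was at 198.4 ± 7.66 FPKM in Bach2KO and 70.2 ± 5.79 in WT. Psmb8 and Stat2 rose by 1.35 and 0.90 on the log2 scale. Ifng, the cytokine that acts on these genes, was at 10.6, 22.8 and 3.99 FPKM in Bach2KO and 0.0315, 0 and 0.0615 in WT, and its part in these rises was not tested.

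Kif3a encodes a motor subunit of kinesin-2, which moves cargo along microtubules and builds cilia. It was at 3.96, 2.72 and 4.75 FPKM in Bach2KO and 1.88, 1.76 and 1.97 FPKM in WT iTreg libraries. The groups did not overlap, and it rose by 0.83 (SE 0.181, limma adjusted p = 0.00619). In the single libraries it was at 6.50 FPKM in Th17, 6.23 in Th2, 3.31 in Th1 and 1.10 in naive cells, with Th17 and Th2 overlapping in their bounds and Th1 inside the range of Bach2KO iTreg libraries. Of its 3 partners, the adaptor gene Kifap3 rose by 0.58 (limma adjusted p = 0.00321), beside 41% of all genes tested. Kif3b and Kif3c, the other motor subunits, were not called (limma adjusted p = 0.0638 and 0.849). With equal sums Kif3c was called lower (−0.27, limma adjusted p = 0.0451), Kif3b stood at −0.04, and the sign of the list's median turned. Kif3b was called higher without Bach2KO replicate 3 (0.28, limma adjusted p = 0.0376). A longer annotated Il4 transcript reaches into the 3′ end of Kif3a on the other strand. The labels do not say whether strand was used in counting.

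Sept8 encodes a septin, a GTPase that forms filaments at membranes, and is the leftmost gene of the set. It was at 5.41, 3.26 and 6.21 FPKM in Bach2KO and 0.379, 0.411 and 0.383 FPKM in WT iTreg libraries. The WT libraries were nearly alike and far below the lowest Bach2KO library, and Sept8 rose by 2.57 (SE 0.217, limma adjusted p = 1.01e-04). Its order was Th2 (6.70 FPKM), Bach2KO iTreg, Th1 (2.07), Th17 (1.72), naive (0.597) and WT iTreg cells, in which Th2 overlapped with Bach2KO iTreg and Th1 with Th17. The naive bounds (0.467 to 0.726) lie above the WT iTreg values but overlap the bounds of the highest WT iTreg library (0.295 to 0.527). Among 6 other septin genes 4 rose and 1 fell, beside 41% higher and 33.6% lower over all genes tested. Their median was 0.37, and quantile scaling and equal sums gave 3 higher and 2 lower. Sept11 had the largest difference of them, at 22.8 ± 2.94 FPKM in Bach2KO and 3.56 ± 0.657 in WT (log2 2.53, limma adjusted p = 2.39e-05). Sept7 and Sept9 rose by 0.73 and 0.51 on the log2 scale, and Sept6, named for its direction, fell to 41.3 ± 3.15 FPKM in Bach2KO, against 48.5 ± 1.45 in WT, a call lost without WT replicate 3 (limma adjusted p = 0.0566). Sept2 rose by 0.24 in the main scaling (limma adjusted p = 0.00232), but was at −0.03 with equal sums and not called with quantile scaling.

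P4ha2 encodes a catalytic subunit of prolyl 4-hydroxylase, which modifies collagen chains, and is the rightmost gene. It was at 4.54, 2.03 and 8.80 FPKM in Bach2KO and 0.351, 0.591 and 0.327 FPKM in WT iTreg libraries. On the log2 scale its difference had the largest SE of the 7 genes tested, and replicate 2 stood at 0.305 times the mean of the others, but no values overlapped. P4ha2 rose by 2.42 (SE 0.459, limma adjusted p = 0.00348). The highest levels were in Th2 (33.5 FPKM) and Th1 cells (25.4), with 3.77 in Th17 and 1.83 in naive cells, so that the Bach2KO iTreg mean was 15.3% of the Th2 level. The Th17 value fell within the range of Bach2KO iTreg libraries, and no other neighbours overlapped. Its tested family partners rose too, where 41% of all genes tested were called higher. P4ha1, the other catalytic subunit tested, rose to 32.6 ± 2.50 FPKM in Bach2KO, against 9.93 ± 0.616 in WT (limma adjusted p = 9.02e-06). P4hb, the shared subunit, rose to 144.0 ± 5.37 FPKM in Bach2KO, against 61.3 ± 3.07 in WT (limma adjusted p = 8.03e-06). P4ha3 was at or near 0 in all iTreg libraries and was not tested.

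Of the 8 genes, 7 passed the filter on low values, and the same 7 were called higher in Bach2KO iTreg cells, where 74.7% of all 11473 genes tested were called, 41% higher and 33.6% lower. That background split was 4709 higher and 3857 lower; it was 3729 and 4878 with quantile scaling and 3265 and 5434 with equal sums. A rise of at least 2-fold was called for 5 of the 7 (Il4, Il13, Sept8, P4ha2 and Irf1), on the log2(FPKM + 0.5) scale, against 14.7% of all genes tested. The libraries of the genotypes did not overlap, with Bach2KO above, for all 7 tested, as for 43.4% of genes tested (79.4% in either direction). Il4, Il13, Sept8 and P4ha2 averaged under 0.5 FPKM in WT and passed the filter through their Bach2KO level alone, so they could differ only upward. The median log2 difference of the 7 was 2.42, or 2.23 without Il13, beside 0.07 over all genes tested. Neither these counts nor this median is support for anything beyond the single genes, since 4 of the 7 were bound to lie above 0. Rad50, Irf1 and Kif3a passed the filter on their WT level too, with differences of 0.92, 2.04 and 0.83. Of all genes tested, 0.392% had a larger rise than Il4, 3.21% than Sept8, 3.72% than P4ha2, 5.13% than Irf1, 16.7% than Rad50 and 18.6% than Kif3a. The shares for Il4, Sept8 and P4ha2 only describe the size of their rise, since these genes could differ only upward.

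The 5 other loci of the stretch lie between Irf1 and P4ha2 and did not share 1 direction. Gm12216, a predicted gene whose introns hold peaks 8 to 11, was at 4.08, 3.87 and 3.44 FPKM in Bach2KO and 2.17, 2.14 and 2.80 FPKM in WT iTreg libraries. It rose by 0.59 (limma adjusted p = 0.00387). The carnitine transporter gene Slc22a5 was at 5.49, 7.26 and 4.92 FPKM in Bach2KO and 8.63, 8.22 and 8.62 FPKM in WT, and fell by 0.51 (limma adjusted p = 0.0138). Pdlim4, which encodes an actin-associated protein and holds peak 14, was at 5.50, 5.33 and 4.98 FPKM in Bach2KO and 10.7, 13.3 and 10.8 FPKM in WT, and fell by 1.06 (limma adjusted p = 1.42e-04). Slc22a21 was between 0.647 and 0.913 FPKM in all 6 libraries and was not called (log2 −0.11, limma adjusted p = 0.389). Slc22a4 was at 0 or near 0 in each library and was not tested. Slc22a21 lies close to paralogous transporter genes, and since only unique reads were mapped, its level is uncertain where sequence is shared with them.

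**Figure D3:**
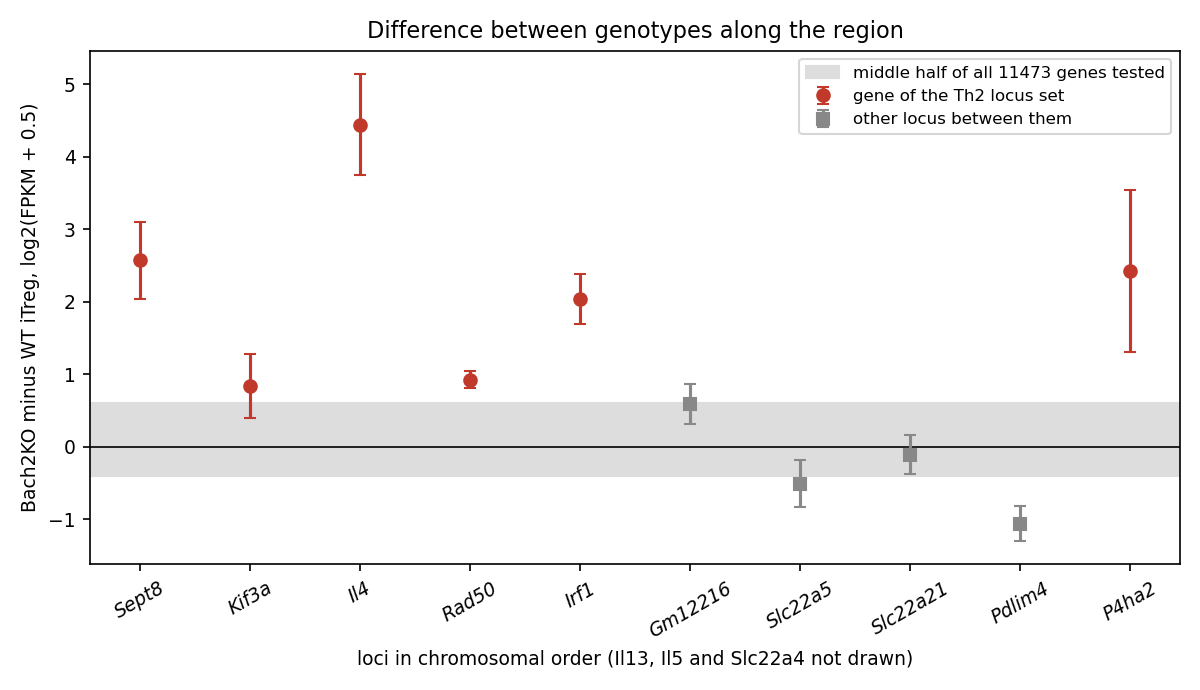
Log2 difference of Bach2KO minus WT iTreg cells (vertical axis, log2(FPKM + 0.5); whiskers are the 95% interval of the limma fit, n = 3 libraries each) for tested loci in chromosomal order, with genes of the set as red circles, other loci as grey squares, and a band from the lower to the upper quartile of all 11473 genes (−0.40 to 0.60). The genes of the set that are drawn lie above the band, from 0.83 to 4.44, and the loci between Irf1 and P4ha2 lie from −1.06 to 0.59 (Il13, Il5 and Slc22a4 are not drawn).

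Within the Bach2KO group the genes varied together in part. Replicate 2 was the lowest of the 3 for Il4, Il13, Il5, Kif3a, Sept8 and P4ha2 and the highest for Rad50 and Irf1, an observation made after the values were seen. Over all genes tested it was the lowest for 39.3% and the highest for 45.2%. The same library was the highest of the group for Foxp3 (19.7 FPKM), Tbx21 (14.7 FPKM) and Ifng (22.8 FPKM) and the lowest for Gata3 (14.1 FPKM, with 18.5 and 19.1 in the others). Without it the log2 difference was 4.78 for Il4, 2.82 for Sept8, 2.90 for P4ha2 and 1.03 for Kif3a, each still called by limma. Its part in the spread was not tested.

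Likeness of profile over the 10 libraries was measured as the cosine between log2(FPKM + 0.5) + 1 values, as a description without a test. Il4 and Il13 were most like each other, with a cosine of 0.986, where the median to Il4 over 8695 loci compared was 0.650. Sept8 was the neighbour most like Il4 (0.898), followed by Il5 (0.885), P4ha2 (0.765), Kif3a (0.730), Rad50 (0.715) and Irf1 (0.672). Beyond Il13, the loci most like Il4 were Adc (0.958), Asb2 (0.951), Tnp2 (0.948) and Oit3 (0.947), and the next for Il13 after Oit3 (0.978) and Tnp2 (0.946) were Hemgn (0.942) and Il10 (0.941). Those most like Il5 were Oit3 (0.917), Adc (0.897) and Il10 (0.890). All cosines of Il5 rest on at most 21 implied reads in a library. Its highest level was 0.430 FPKM, where the loci compared had to reach 5 FPKM in a library. Asb2 was at 14.4, 9.83 and 19.6 FPKM in Bach2KO iTreg cells, 0.369, 0.130 and 0.174 in WT iTreg cells, and 21.4 FPKM in Th2 cells. Il10, an anti-inflammatory cytokine gene of chromosome 1, was at 9.79, 2.61 and 13.5 FPKM in Bach2KO and at most 0.0560 in WT iTreg cells, with 3.28 in Th2 and 2.47 in Th17 cells. None of these loci is on chromosome 11, apart from the cytokine genes themselves, and genes that share libraries also share their depth.

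**Figure D4:**
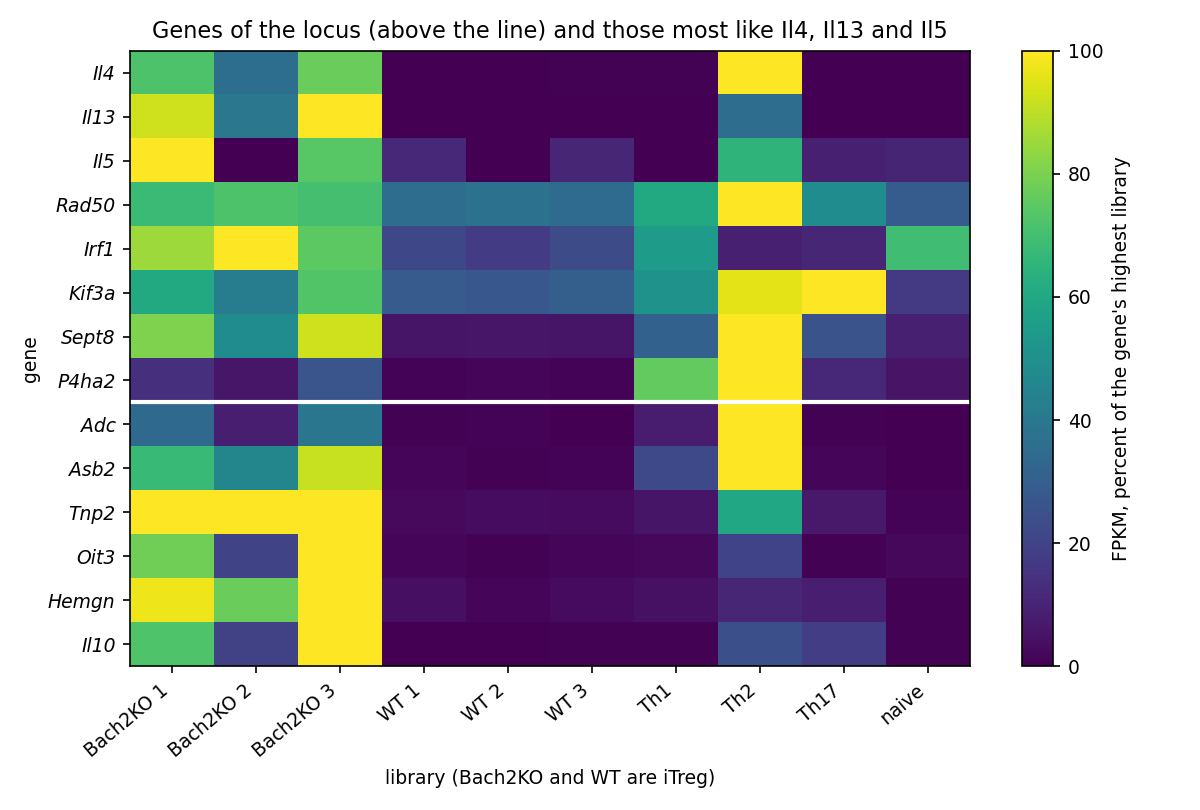
FPKM of each gene as a percentage of its highest library (colour, 0 to 100) in the 10 libraries (columns), for the 8 genes of the set (rows above the white line) and for the loci most like Il4, Il13 and Il5 (rows below). Il13, Tnp2, Oit3, Hemgn and Il10 have their highest library in Bach2KO, and Il4, Adc and Asb2 in Th2 cells; these rows are dark in the WT iTreg and naive libraries, and Hemgn is dark in Th2 cells too (10.7%).

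The factors known to act on the cytokine genes were followed as lists. Of 14 tested activators of Th2 cytokine genes (15 listed), 9 rose in Bach2KO iTreg cells and 3 fell, beside 41% higher and 33.6% lower over all genes tested. The list's median log2 difference was 0.41, and the split was 6 higher and 5 lower with equal sums. Gata3, the master factor of Th2 cells, was at 17.2 ± 2.73 FPKM in Bach2KO and 9.16 ± 0.540 in WT, a log2 rise of 0.87 (limma adjusted p = 9.39e-04). Both stood far below the 101.9 FPKM of the Th2 library, and both means also lay below the 19.5 FPKM of the naive library. Irf4, which activated T cells need for Il4, was at 87.5 ± 5.13 FPKM in Bach2KO and 14.5 ± 2.67 in WT. The Notch pathway genes Notch1 and Rbpj rose by 1.32 and 2.47, and Junb, an AP-1 subunit that acts at Il4, by 2.29 on the log2 scale. The 3 that fell, named for that, were Maf (13.5 ± 1.44 FPKM in Bach2KO, 43.4 ± 4.92 in WT), a factor for Il4, Tcf7 (210.7 ± 40.3 in Bach2KO, 581.4 ± 25.1 in WT) and Stat5b. The call of Stat5b (−0.23, limma adjusted p = 0.0266) was lost without any 1 of the WT libraries (limma adjusted p = 0.0615 to 0.0782). Stat6, the signal transducer of IL-4, was at 71.1 ± 1.51 FPKM in Bach2KO and 66.8 ± 1.73 in WT and was not called (log2 0.09, limma adjusted p = 0.0735). It was called lower with quantile scaling (−0.17, limma adjusted p = 0.00428) and equal sums (−0.18, limma adjusted p = 0.00326).

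Repressors of the Th2 cytokine genes went both ways, with 5 higher and 5 lower of 10 tested (11 listed), beside 41% higher and 33.6% lower over all genes tested, a split that held in all 4 scalings. Bach2 itself is 1 of the 5 lower, which the knockout fixes, and Tbx21 and Eomes passed the filter through their Bach2KO level alone. Tbx21, the gene of T-bet, which drives Th1 cells, was at 11.3, 14.7 and 9.18 FPKM in Bach2KO and at most 0.148 in WT. Its partner Runx3, which silences Il4 in Th1 cells, was at 34.6 ± 3.50 FPKM in Bach2KO and 3.63 ± 0.437 in WT, and Eomes rose by 4.69 on the log2 scale. Sox4, which binds GATA3, fell to 0.744 ± 0.149 FPKM in Bach2KO, against 15.6 ± 1.29 in WT. Chromatin and looping factors showed 7 higher and none lower of 10 tested (background 41% and 33.6%), with a median of 0.22, but 4 higher and 3 lower with quantile scaling and with equal sums. The DNA methyltransferase gene Dnmt1 rose by 2.42, the histone methyltransferase gene Ezh2 by 2.21, the cohesin gene Rad21 by 1.25 and the remodeller gene Smarca4 by 0.60 on the log2 scale.

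Of 8 tested receptor and signalling genes of IL-4, IL-5 and IL-13 (12 listed), 5 rose in Bach2KO cells and 2 fell, beside 41% higher and 33.6% lower over all genes tested. Their median log2 difference was 0.41, and equal sums gave 3 higher and 3 lower. Il4ra, the receptor chain shared by IL-4 and IL-13, was at 144.6 ± 24.7 FPKM in Bach2KO and 42.2 ± 0.986 in WT, and the feedback inhibitor gene Socs1 at 161.1 ± 20.3 FPKM in Bach2KO and 15.5 ± 0.665 in WT. Jak3 rose by 1.17, and Jak1 fell to 106.9 ± 6.97 FPKM in Bach2KO, against 227.5 ± 13.7 in WT. The receptor chain genes Il5ra, Il13ra1, Il13ra2 and Csf2rb were all under 0.1 FPKM on average in each iTreg genotype and were not tested. Il13ra1 was at 1.81 FPKM in the Th1 library. Among other Th2-linked genes, 7 rose and none fell of 9 tested (15 listed), beside 41% higher and 33.6% lower over all genes tested. Their median log2 difference was 1.77, and 6 were under the filter. Il9, Il10, Il24, Asb2 and Epas1 averaged under 0.5 FPKM in WT and passed the filter through Bach2KO alone, so that count and median support nothing about the list. Ccr4, a chemokine receptor gene of Th2 cells, was at 80.2 ± 8.69 FPKM in Bach2KO and 11.2 ± 0.907 in WT. Il9 was at 59.7, 20.7 and 73.7 FPKM in Bach2KO and at most 0.194 in WT, with 0.140 in Th2 cells, so unlike Il4 it was high in Bach2KO iTreg cells and near 0 in the Th2 library. Ccr8 rose by 0.65 on the log2 scale.

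The peaks were then set beside the differences. Within 10 kb of its locus, 4 of the 8 genes (Kif3a, Il4, Rad50 and Irf1) had a Bach2 peak, against 40.5% of all loci and 58.8% of the loci tested. A peak inside the locus was found for Kif3a and Rad50, against 26.6% of all loci. These are the longest loci of the set and also had the smallest rises among those called. Any link of length or peak with the rise was not tested. Il13, Il5, Sept8 and P4ha2 had no peak within 10 kb. Among the 15 peaks of the stretch, the nearest summit was 20.7 kb from the start of Il13 and 43.3 kb from that of Il5. It was 43.6 kb from the start of Sept8 and 20.3 kb from that of P4ha2. Peaks beyond the stretch did not enter these distances, and Sept8 starts at its left edge. The start of Il4 was 13.1 kb from its nearest summit, that of the weak peak 3. Of the 15 peaks, 8 lay between Irf1 and P4ha2, around loci of which 1 rose, 2 fell and the others were not called or not tested. These are values of 1 ChIP library without replicate, and no test was made.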

How the data were processed

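RNA was measured in 10 libraries, and Bach2 binding in 1 ChIP library set against 1 input library. Per the labels' protocols, unique 50-bp reads were mapped to mm9 with TopHat and Cufflinks; ChIP reads were aligned with Bowtie, per the submitters' processing notes. These sources name no versions or gene annotation. The deposited RNA values are FPKM with confidence bounds, per the file headers. The peak list was made by the authors with MACS 1.4.0beta from 8992019 ChIP tags and 9999999 input tags at a p cutoff of 1e-05, and each peak has a tag count, per the file headers. Its score (10 times the −log10 of p), its fold enrichment (a ratio to local background) and its FDR in percent are also deposited, per the file headers, and served only to describe peaks. FPKM steps gave whole reads within 0.02 for only 73.7 to 78.9% of low genes over the 10 libraries, so no count test was run.

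Bach2KO and WT iTreg libraries were compared by limma 3.58.1 under R 4.3.3, with a mean-variance trend, on log2(FPKM + 0.5). The 11473 genes averaging 0.5 FPKM or more across these 6 libraries entered; tests were two-sided with Benjamini-Hochberg adjustment over these and a threshold of 0.05. The procedure was tested on simulated data. Libraries of a group differed by more than sampling noise (chi-square per degree of freedom 12.5 to 41.9), so no pair was treated as 1 library in duplicate. Single libraries entered no test. Exons and introns came from GENCODE on mm9. Named are the 8 genes, Bach2, lineage genes, the 5 loci most like each cytokine gene, up to 4 called genes per list by adjusted p, and the loci between; other names were chosen after their values were seen. The genes, lists and alternatives were chosen with earlier results of these data known.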

Additional observations from a re-analysis of the deposited data

How the results depend on the processing

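The comparison was repeated under 15 alternatives (other pseudocounts, filters, scalings, variance estimates, and each iTreg library left out in turn). The 7 tested genes of the locus were called higher every time, 105 of 105 values. For Il4, Il13, Sept8 and P4ha2 the direction was fixed in advance, since they could differ only upward. Of all genes tested, 28.4% to 42.1% were called higher under these alternatives. The number of genes called in either direction was 7590 to 9528, and 7746 to 8644 with a library left out. Of 941 values for 63 other named genes, 922 kept their direction and side of the threshold; the exceptions were values of Sept2, Stat6, Kif3b, Kif3c, Atm, Sept6 and Stat5b. Sept2 was at 0.07 with quantile scaling (limma adjusted p = 0.13) and −0.030 with equal sums (limma adjusted p = 0.52). Stat6 (0.09 in the main scaling) was at −0.17 with quantile scaling, −0.18 with equal sums and −0.042 with equal medians. Kif3b was at −0.044 with equal sums. Kif3c ranged from −0.10 to 0.058 with a library left out. Stat5b was not called under the replicate block (limma adjusted p = 0.0582). The median over all genes was 0.07 in the main scaling, −0.09 with quantile scaling, −0.19 with equal sums (taken over loci 300 bp or longer) and −0.05 with equal medians. With the pseudocount at 0.1 and 1 the log2 difference of Il4 was 6.50 and 3.54. Same-numbered libraries did not deviate together (correlations −0.0380, −0.0382 and 0.00600). These correlations cannot show whether same-numbered libraries share an origin, so any pairing is unknown. The replicate block gave 7886 genes called and the same 7 of the locus. Of the 15 peaks, 8 had an FDR of at most 1% and 10 at least 10-fold enrichment. A peak within 5 kb, or inside the locus, was found for 2 of the 8 genes, against 34.4% and 26.6% of all loci. Within 20 kb it was 6 of the 8, against 49.1% of all loci. With peaks of at least 10-fold enrichment only, it was 3 of the 8 within 10 kb, against 31.9% of all loci. Low depth limits Il5, and 1 ChIP library allows no replicate check of a peak.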

Other observations

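The balance of the cytokine genes differed between the groups that transcribed them. Per length, Il13 stood at 1.16, 0.992 and 1.17 times the level of Il4 in Bach2KO iTreg libraries and at 0.323 times in the Th2 library. Il5 was under 0.5 FPKM in both. The Th2 group is 1 library, so this was not tested.

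The strongest Bach2 peaks of the stretch, by score, were peaks 12 and 13 at Slc22a4, a transporter gene. Peak 12 (101 tags, 41.3-fold) lay in its intron 1 and peak 13 (127 tags, 26.3-fold) just upstream of its start, and 6.57% and 8.49% of all peaks scored higher. Both hold TGANTCA within the 300 bases around the summit. Slc22a4 was at most 0.0115 FPKM in each of the 10 libraries, the 3 of Bach2KO iTreg cells included.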
